A study of Homo sapiens with 17 samples.

Results

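The genes described here are the 259 expressed protein-coding genes of YB5 cells that span more than 300 kb of the genome from their first to their last annotated base, introns included. They are 259 of the 19141 genes counted and of 9094 protein-coding genes that passed the same expression limit, a mean of at least 10 CPM (a gene's counts scaled to a fixed library total) over the 8 DMSO libraries. At any level, 813 protein-coding genes span more than 300 kb. The members were chosen by their span and by their measured DMSO level, so that level is described without a test. Every contrast below also uses the DMSO libraries that set this limit, so the long genes are read beside the 3040 expressed genes under 20 kb, which had to pass the same limit.

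YB5 is a derivative of the colon cancer cell line SW48 that carries a silenced GFP gene driven by a CMV promoter. The cells received 250 nM toyocamycin, an adenosine analog, or its vehicle DMSO. PolyA-selected RNA was sequenced from 2 libraries per arm at 2 h, 1 DMSO and 2 toyocamycin libraries at 10 h, 1 library per arm at 24 and 48 h, and 3 per arm at the last time, which is 72 h in the labels used here and 96 h in the text of the study. All libraries come from the same cell line and carry no further alleles or agents by their labels. Batch 2 of the labels holds replicate 2 of both arms at 2 h and at 10 h. The labels do not say that the replicates were separate cultures, so p-values measure the spread between these libraries.

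The polymerase has to cross all introns of a gene before the transcript is complete, and a gene of this size consists almost wholly of introns. Such genes are known for their need of processive elongation, of factors that keep the polymerase from stopping at poly(A) signals within introns, and of many splicing events. In epithelial cells, long genes encode many scaffold proteins of cell junctions, the cytoskeleton, membrane traffic and signalling, and several of them lie in common fragile sites. Because polyA RNA was measured, the counts come mostly from finished and spliced transcripts.

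Gene counts totalled 8735465 to 22121364 reads in a library. Replicate 2 of toyocamycin at 10 h had the lowest total and the highest share of mitochondrially encoded counts (6.55%, against 0.917% to 3.49% in the others). The difference between long genes and genes under 20 kb at 10 h is given with and without it. Other results at 10 h include it. Of 10 colon epithelium markers, 6 (EPCAM, CDH1, KRT8, KRT18, KRT19 and CDX2) had 10 CPM or more in DMSO, while KRT20, CDX1, VIL1 and LGALS4 were near 0. Leukocyte and endothelium markers summed to at most 0.759 and 0.742 CPM in DMSO libraries and to at most 5.38 and 12.7 CPM in toyocamycin libraries. The fibroblast markers summed to 0.505 to 15.4 CPM in DMSO and 0.661 to 23.2 CPM in toyocamycin. The colon epithelium list summed to 2262 to 7530 CPM in DMSO and 386 to 4519 CPM in toyocamycin, and its part in the results was not tested. One of 4 neuron markers, SYT1, is itself a long gene and had 6.11 to 19.9 CPM in DMSO.

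The long genes had a median span of 407 kb, from 301 kb (COBL) to 2305 kb (CNTNAP2). Their longest intron had a median of 115.6 kb, against 2.75 kb in genes under 20 kb. Their mature mRNA was longer as well, with a median of 6.26 kb against 2.20 kb, and the canonical transcript held a median of 18 exons against 6. Span, mRNA length and exon number therefore differ together between these groups of genes. The median DMSO level of the long genes was 36.3 CPM against 54.0 CPM in short genes. The gene span counts every annotated transcript, and the canonical transcript alone passed 300 kb in 207 of the 259. In AHR and CD36, for example, it spans 47.5 and 40.6 kb. In 109 members more than 1% of the exon bases, and in 17 members more than 10%, are shared with another gene, so that reads there may be lost or misassigned.

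A gene this long can also be read from starts inside it. RefSeq start windows (GRCh38.p14, from 250 bases before to 50 bases after a start) were matched to 211 long genes, and 46.0% of these have more than 1 listed start, against 23.0% of 2492 short genes. In 27 of the 211, the start closest to the gene end leaves less than 100 kb to transcribe. PDE4B has 6 listed starts, the last of which leaves 20.04 kb, while RUNX2 has 2 and XYLT1 has 1. Counts per gene do not tell these starts apart. The most upstream windows of RUNX2 and PDE4B, the long genes with the largest rise at 72 h, and of LRBA and XYLT1, both among those with the largest fall, are shown as examples of base content at these starts. Capitals mark GGGCGG or its reverse complement, the core of the GC box.
RUNX2, chr6:45328080-45328379, plus strand: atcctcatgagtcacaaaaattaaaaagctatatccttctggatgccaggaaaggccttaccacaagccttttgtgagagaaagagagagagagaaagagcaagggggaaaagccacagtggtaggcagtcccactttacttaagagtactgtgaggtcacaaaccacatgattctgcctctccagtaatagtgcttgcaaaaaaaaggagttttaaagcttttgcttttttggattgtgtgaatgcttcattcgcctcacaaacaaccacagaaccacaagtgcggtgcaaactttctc
PDE4B, chr1:65792260-65792559, plus strand: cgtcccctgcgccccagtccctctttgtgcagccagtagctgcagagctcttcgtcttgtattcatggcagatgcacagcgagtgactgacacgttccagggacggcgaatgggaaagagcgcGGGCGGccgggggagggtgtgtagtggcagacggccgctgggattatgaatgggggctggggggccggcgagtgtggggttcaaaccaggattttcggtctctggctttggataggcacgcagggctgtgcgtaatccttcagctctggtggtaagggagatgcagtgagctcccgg
LRBA, chr4:151015678-151015977, minus strand: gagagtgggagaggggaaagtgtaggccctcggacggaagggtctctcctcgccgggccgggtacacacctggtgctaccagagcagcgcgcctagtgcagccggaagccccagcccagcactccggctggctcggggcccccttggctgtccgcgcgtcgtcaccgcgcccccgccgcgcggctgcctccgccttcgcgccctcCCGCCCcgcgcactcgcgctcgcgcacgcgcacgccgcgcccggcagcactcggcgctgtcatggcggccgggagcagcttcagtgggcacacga
XYLT1, chr16:17470911-17471210, minus strand: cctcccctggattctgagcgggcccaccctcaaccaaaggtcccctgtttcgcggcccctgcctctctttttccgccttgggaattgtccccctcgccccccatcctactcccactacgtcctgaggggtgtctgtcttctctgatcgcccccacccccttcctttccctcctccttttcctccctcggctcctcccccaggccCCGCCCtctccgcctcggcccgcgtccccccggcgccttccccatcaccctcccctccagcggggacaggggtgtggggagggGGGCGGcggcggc
The RUNX2 window is 42.7% G or C with 2 CpG dinucleotides and holds no match. The LRBA window is 75% G or C with 41 CpG and holds 1 match. The PDE4B window is 61.7% G or C with 19 CpG and holds 1 match, and the XYLT1 window is 70% G or C, also with 19 CpG, and holds 2 matches. The median G or C content was 67% over the long genes and 65.5% over the short genes. GGGCGG, on either strand, was found in 70.6% of the windows of long genes, 73.6% of those of short genes and 73.9% of all 7537 matched expressed genes. TATAAA, on either strand, was found in 5.21%, 5.34% and 4.59% of these windows, and CCAAT, on either strand, in 29.9%, 40.0% and 36.9%. Among long genes that were higher at 72 h, 20 of 37 windows held GGGCGG and 5 held TATAAA, and among those that were lower, 117 of 157 and 6 did. These matches describe the letters only.

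Fold changes below are from edgeR on TMM-scaled counts, and calls were made at an adjusted p under 0.1 (Benjamini-Hochberg, over all genes tested), the study's threshold. All 259 members were tested at each time. TMM sets a trimmed mean of genes to no change, so values are relative to other RNAs and not to the RNA of a cell, and in bulk samples fewer cells and less RNA per cell cannot be told apart. From 2 to 72 h, the medians over all genes that entered the test were 0.02, 0.42, 0, 0.16 and 0.18 on the log2 scale, and those over the 9094 expressed protein-coding genes 0.04, -0.28, -0.23, -0.59 and -0.75.

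After 2 h, the long genes as a group had hardly moved. Of the 259, 19 (7.34%) were lower and 0 were higher, beside 8.42% lower and 0.518% higher among all genes tested and 9.90% and 0.263% of short genes. At an unadjusted p under 0.05, 35 were lower and 2 higher, and DESeq2 called 18 lower and 0 higher. The median log2 fold change was 0.02 in long genes and 0.11 in short genes. Genes of 50 to 100 kb and of 100 to 300 kb were more often lower than the long genes, each with 12.5%. The number of a replicate is also its batch at 2 h, and with it as a block in a fit of the 4 libraries of 2 h, 52 long genes were lower and 14 higher, beside 18.7% and 8.72% of the genes of that fit. By 10 h, 101 long genes (39.0%) were lower and 41 (15.8%) higher, beside 24.4% and 20.4% of all genes tested and 29.51% and 30.95% of short genes. At 24 h, 129 (49.8%) were lower and 60 (23.2%) higher, beside 32% and 30.7%. At 48 h, 156 (60.2%) were lower and 48 (18.5%) higher, beside 35.5% and 39.2%. Of short genes, 35.0% were lower and 39.8% higher at 24 h, and 46.6% and 32.4% at 48 h. Of genes of 100 to 300 kb, 52.9% were lower at 24 h and 61.4% at 48 h. By 72 h, 195 long genes (75.3%) were lower and 45 (17.4%) higher, beside 41.9% and 47% of all genes tested. At that time 53.1% and 36.8% of short genes were lower and higher, and 58.4% and 31.2% of all expressed protein-coding genes. Genes of 100 to 300 kb came closer to the long genes, with 68.2% lower and 22.2% higher. Both arms had a lone library at 24 and 48 h, so these calls borrow their spread from replicates of other times, and p-values of named genes are left out at those times. At 10 h the DMSO arm had a lone library as well. Its spread is borrowed likewise, so standard errors and p-values printed for 10 h are to be read with caution.

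The median log2 fold change of the long genes moved from 0.02 at 2 h to -0.34, -0.55, -1.07 and -1.31 at 10, 24, 48 and 72 h. The middle 50% of long genes lay between -2.57 and -0.26 at 72 h. Short genes had medians of 0.11, 0.09, 0.11, -0.37 and -0.50. The long genes were thus lower than the short genes by 0.09, 0.42, 0.65, 0.70 and 0.81 on the log2 scale, which at 72 h is a ratio of 0.569. With the expression limit set on the mean of all 17 libraries in place of the DMSO libraries, the difference at 72 h was -0.93. The medians of the classes between them lay in order of span at 48 and 72 h, with -0.58 for 20 to 50 kb, -0.88 for 50 to 100 kb and -1.24 for 100 to 300 kb at 72 h. At 10 h that order broke, since genes of 100 to 300 kb had a median of -0.67, below that of the long genes, and 53.5% of them were lower. The long genes differed from the class of 100 to 300 kb by little at 24 h as well, with medians of -0.55 and -0.62.

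**Figure D1:**
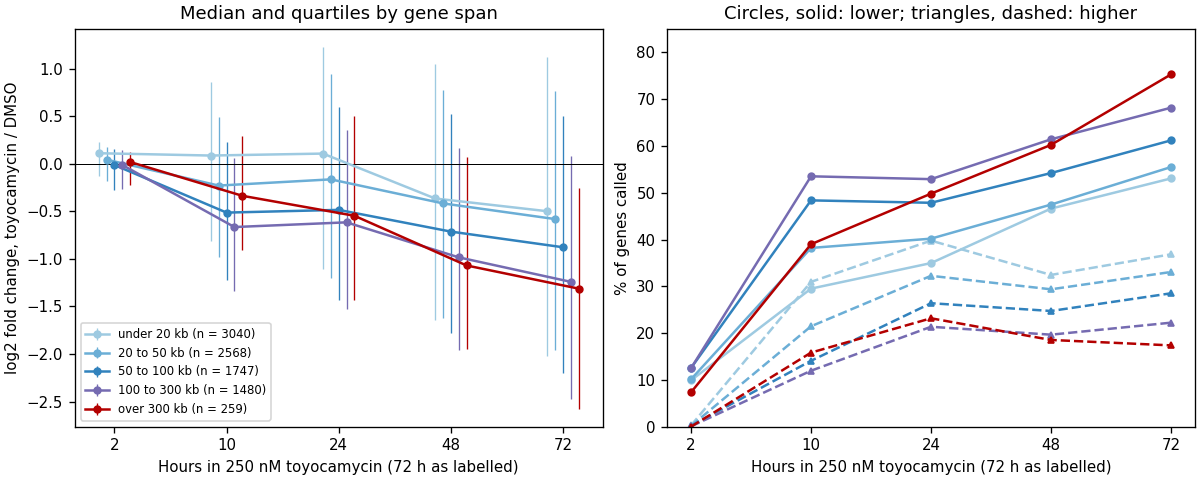
Left, median log2 fold change of toyocamycin against DMSO for 5 classes of gene span at each time (bars, quartiles over genes); right, percent of genes called lower (circles, solid) and higher (triangles, dashed). The line of genes over 300 kb runs from 0.02 to -1.31 and its share of lower calls from 7.34% to 75.3%.

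Scaling decides how many long genes count as lower or higher. A change of scaling shifts all genes of a library alike. The numbers of calls below are given for members only, so they do not set long genes apart from other genes. With library size alone, 150 were lower and 19 higher at 10 h, 193 and 21 at 24 h, 191 and 22 at 48 h, and 215 and 24 at 72 h. With the mitochondrially encoded genes as reference, the numbers were 0 and 0 at 2 h, 141 and 0 at 10 h, 213 and 0 at 24 h, 204 and 2 at 48 h, and 214 and 12 at 72 h. With DESeq2 size factors, 80 were lower and 59 higher at 10 h and 178 and 55 at 72 h. The difference in medians between long and short genes was -0.65 at 24 h and -0.70 at 48 h under TMM, DESeq2 size factors, library size alone and mitochondrial scaling, and -0.81 or -0.82 at 72 h. At 2 h it was -0.09 under the first 3 of these and -0.03 under mitochondrial scaling.

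The level per library was compared as the median log2 CPM (prior count 2) of long genes minus that of short genes. In the DMSO libraries it was -0.77 and -0.42 at 2 h, then -0.11, -0.49 and -0.71 at 10, 24 and 48 h, and -0.81, -0.73 and -0.54 at 72 h. In the toyocamycin libraries it was -0.71 and -0.60 at 2 h, -0.79 and -0.14 at 10 h, -1.02 at 24 h, -1.37 at 48 h and -1.60, -1.62 and -1.64 at 72 h. The toyocamycin libraries of 24, 48 and 72 h lay below all 8 DMSO libraries, and those of 2 h lay within their range. Within batch 1 the toyocamycin library of 2 h was above its DMSO library, and within batch 2 it was below. At 10 h, toyocamycin replicate 1 of batch 1 decides the difference. Without it the fold changes of long genes were lower than those of short genes by 0.10, without replicate 2 by 0.64, and with batch as a term by 0.21. The long genes held 1.40% to 1.91% of all counts in DMSO libraries and 1.07% ± 0.0032 (SD, n = 3) in toyocamycin at 72 h, against 1.47% ± 0.069 (SD, n = 3) in DMSO at that time. Their median level in those libraries fell from 29.3 ± 1.31 to 11.4 ± 0.22 CPM (SD, n = 3 each).

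**Figure D2:**
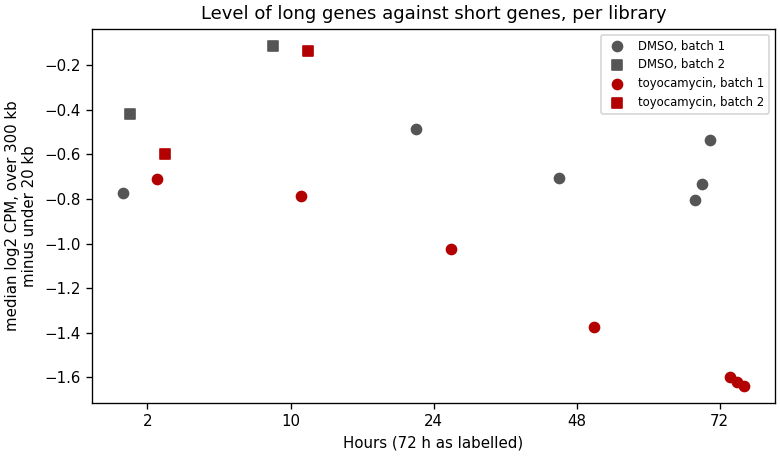
Median log2 CPM of the 259 long genes minus that of the 3040 short genes in each library, by time, treatment (colour) and batch (symbol). DMSO libraries lie between -0.81 and -0.11, and the toyocamycin libraries of 72 h between -1.64 and -1.60.

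The calls of a gene at successive times were mostly of the same sign. At 24, 48 and 72 h, 111 long genes were lower at all of these times and 30 were higher at all of them, and 64 of the former were already lower at 10 h. A further 30 were lower at 72 h and at no earlier time. Changes of sign also occurred, as 26 genes were higher at 10 h and lower at 72 h, 15 were lower at 10 h and higher at 72 h, and 20 were higher at 24 h and lower at 72 h. Only 4 genes, ENTREP2, PPP3CA, CDKAL1 and TMTC2, were called at no time. These patterns were counted in the members only and do not set them apart from other genes. Among short genes, 35.0%, 46.6% and 53.1% were lower at 24, 48 and 72 h, and 39.8%, 32.4% and 36.8% were higher. At 72 h every toyocamycin library was below every DMSO library in 195 long genes and above in 43, of which 194 and 43 were called. In the remaining members the libraries of both arms overlapped. Overlap was counted in the members only, so these numbers do not set long genes apart. Of all genes tested, 41.9% were called lower and 47% higher at 72 h. The effect at 72 h itself was lower than that at 2 h in 182 long genes and higher in 42, beside 38.1% and 38% of all genes tested. By this measure, 50% of short genes were lower and 34.4% higher, and 62.2% and 21.8% of genes of 100 to 300 kb. In DMSO alone, 31 long genes were lower and 38 higher at 72 h than at 2 h, beside 11.4% and 10.2%, with a median difference of 0.01 on the log2 scale.

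**Figure D3:**
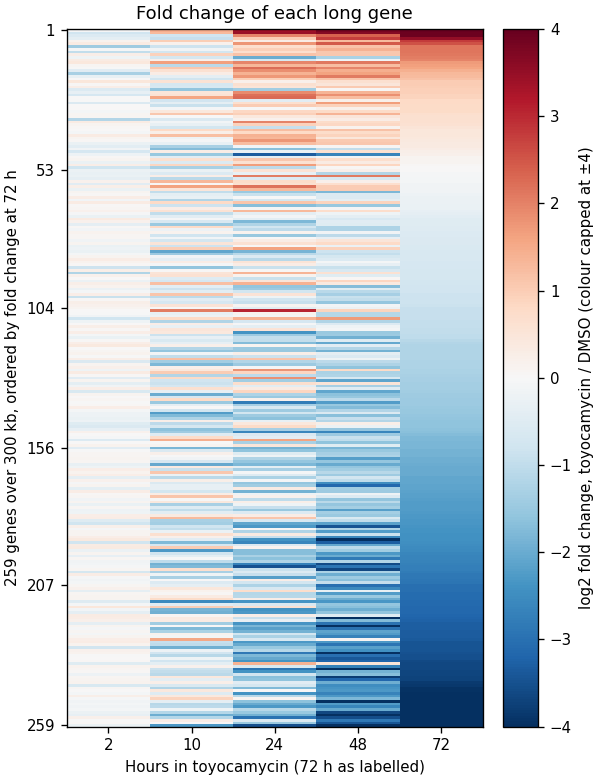
Log2 fold change of each of the 259 long genes (rows, ordered by the value at 72 h) at each time (columns), with colour capped at 4 in both directions. Of the rows, 206 lie below 0 at 72 h and 53 above, while 120 lie below 0 and 139 above at 2 h.

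The largest falls at 72 h left 0.463 to 4.95 CPM per library in the 6 genes that head them. CARMIL1, which encodes a regulator of actin capping protein and lies at chr6:25279078-25620530 (GRCh38), was at 48.3, 53.4 and 57.3 CPM (TMM-scaled) in DMSO and at 1.47, 1.20 and 1.30 CPM in toyocamycin. The 3 toyocamycin libraries were on average about 38.9-fold lower, a log2 fold change of -5.28 ± 0.18 (SE, edgeR adjusted p = 1.30e-12). It was already at 10.1 and 9.73 CPM at 10 h, against 49.1 CPM in DMSO. LRBA (chr4:150264435-151015727), a BEACH-domain protein of vesicle traffic, went from 155, 149 and 173 CPM in DMSO to 4.42, 4.91 and 4.95 CPM, a log2 fold change of -5.03 ± 0.17 (SE, edgeR adjusted p = 1.32e-12). Unlike CARMIL1, LRBA was not lower at 10 h, with 182 and 257 CPM in toyocamycin and 219 CPM in DMSO. XYLT1 (chr16:17101769-17470960), a xylosyltransferase that starts the glycan chains of proteoglycans, had 114, 111 and 103 CPM in DMSO and 3.64, 3.24 and 3.91 CPM in toyocamycin at 72 h, a log2 fold change of -4.89 ± 0.16 (SE, edgeR adjusted p = 9.32e-13). Its DMSO level was lower at 2 h, when the libraries had 66.97 and 56.3 CPM.

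PATJ (chr1:61742477-62178675), a scaffold protein of tight junctions, had 58.1, 66.6 and 72.3 CPM in DMSO and 2.26, 2.41 and 2.26 CPM in toyocamycin at 72 h, a log2 fold change of -4.79 ± 0.18 (SE, edgeR adjusted p = 2.40e-12). KIF16B (chr20:16272104-16573448), a kinesin that carries endosomes, had 17.5, 15.2 and 17.98 against 0.590, 0.463 and 0.782 CPM, a log2 fold change of -4.73 ± 0.24 (SE, edgeR adjusted p = 5.85e-11). In TIAM1 (chr21:31118416-31559977), a Rac exchange factor, the levels were 26.5, 25.03 and 26.7 against 0.885, 0.834 and 1.30 CPM, a log2 fold change of -4.64 ± 0.21 (SE, edgeR adjusted p = 2.02e-11). Its DMSO level was 6.48 and 6.17 CPM at 2 h, and DMSO at 72 h differed from DMSO at 2 h by 2.04 on the log2 scale (edgeR adjusted p = 4.42e-06). None of the 6 genes of the largest fall at 72 h was called at 2 h.

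Among the long genes with the highest DMSO level, SND1 (chr7:127652194-128092609), a nuclease and RNA-binding protein, fell from 506, 499.5 and 463 CPM to 35.6, 32.9 and 33.5 CPM at 72 h, a log2 fold change of -3.82 ± 0.13 (SE, edgeR adjusted p = 1.03e-12). At 10 h it had 512 and 556 CPM in toyocamycin and 449.9 CPM in DMSO, and at 24 h 284 and 393 CPM. CD36, a scavenger receptor for fatty acids, had the highest DMSO mean and fell less, from 562, 529 and 758 CPM to 382, 301 and 318 CPM, a log2 fold change of -0.86 ± 0.18 (SE, edgeR adjusted p = 3.74e-04). CUX1, a homeobox transcription factor, had 281, 284 and 252 CPM in DMSO and 218, 257 and 245 CPM in toyocamycin at 72 h, a log2 fold change of -0.15 ± 0.13 (SE, edgeR adjusted p = 0.305), and its groups overlapped.

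Length beyond 300 kb did not order the falls. CNTNAP2 (chr7:146116002-148420998), a neurexin-family adhesion gene and the longest member, had 39.8, 39.4 and 46.01 CPM in DMSO and 10.8, 10.7 and 11.6 CPM in toyocamycin at 72 h, a log2 fold change of -1.89 ± 0.15 (SE, edgeR adjusted p = 9.32e-09). It was at 32.4 CPM against 36.5 CPM at 24 h and at 20.2 against 48.7 CPM at 48 h. NAALADL2, the second longest with a span of 1372 kb, rose at 72 h from 17.2, 14.8 and 20.3 CPM to 37.2, 37.2 and 28.9 CPM, a log2 fold change of 1.01 ± 0.18 (SE, edgeR adjusted p = 8.76e-05). TBC1D5, a Rab GTPase-activating protein that spans 1288 kb, had 18.3, 18.8 and 18.7 CPM in DMSO and 1.97, 4.45 and 5.65 CPM in toyocamycin, a log2 fold change of -2.16 ± 0.26 (SE, edgeR adjusted p = 1.25e-06), after 11.5 against 13.6 CPM at 48 h. Over all 259 members, the Spearman correlation between span and log2 fold change was 0.04, 0.06, -0.04, -0.04 and -0.02 from 2 to 72 h. Of the 41 members over 600 kb, 36 were lower at 72 h (87.8%), and of the 74 between 300 and 350 kb, 54 were (73.0%). At 10 h the longest were the least often lower, with 9 of 41 (22.0%) against 29 of 74 (39.2%).

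Exon number, which the choice of members did not use, ordered the long genes more than span did. The Spearman correlation between the exon number of the canonical transcript and the log2 fold change was -0.04 at 2 h and -0.44, -0.49, -0.39 and -0.29 at 10, 24, 48 and 72 h over the 259 genes, which share libraries and are not independent. Over all 9094 expressed genes, the values for exon number were 0.02, -0.34, -0.46, -0.40 and -0.35 from 2 to 72 h. This relation was thus not particular to long genes. Those for span were -0.16, -0.23, -0.17, -0.13 and -0.14, and the limit of 300 kb narrows the range of span in the members. At 24 h, 40 of the 48 long genes with over 30 exons were lower and 3 higher, whereas of the 58 with up to 10 exons 12 were lower and 28 higher. The medians of these groups were -1.48 and 0.55. At 72 h they were -2.41 and -0.80, with 42 of 48 and 37 of 58 lower.

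Within classes of 6 to 30 exons, the long genes were not lower than short genes at 24 h, and not by more than 0.02 at 72 h. At 24 h, long genes with 11 to 20 exons had a median of -0.40 (n = 89), and short genes with as many exons had -0.92 (n = 537). With 21 to 30 exons the medians were -0.84 (n = 64) and -1.49 (n = 75), and with 6 to 10 exons 0.42 (n = 48) and -0.06 (n = 1044). At 72 h the long genes stood 0.33 above the short genes for 11 to 20 exons and 0.62 above for 21 to 30, and differed by -0.02 for 6 to 10. The classes at the ends hold few genes on a side, with 10 long genes of 1 to 5 exons, which were lower than short genes by 1.18 at 72 h, and 9 short genes of over 30 exons, against which the long genes differed by -1.85 at 24 h and 0.43 at 72 h. At 10 h the differences were 0.10, -0.01 and -0.19 for 6 to 10, 11 to 20 and 21 to 30 exons. No test was made of these differences.

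**Figure D4:**
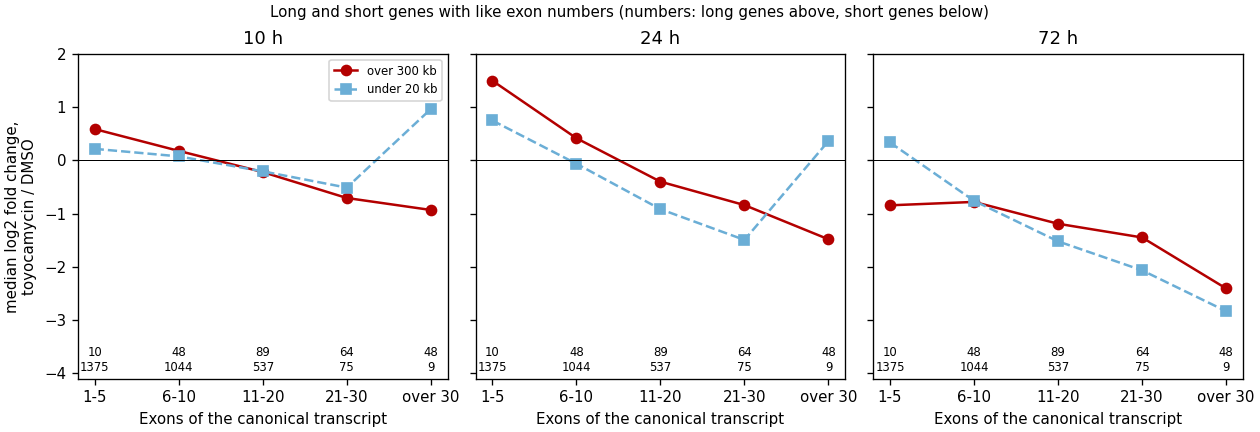
Median log2 fold change at 10, 24 and 72 h against the number of exons of the canonical transcript, for genes over 300 kb (red circles) and under 20 kb (blue squares), with the numbers of genes at the foot of each panel. Both lines fall with exon number from 6 to 30 exons, and at 24 h the long genes lie above the short ones by 0.48 to 0.65 over that range.

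mRNA length went with the fold changes in another way. Over the long genes, the Spearman correlation between the mRNA length of the canonical transcript and the log2 fold change was -0.40, -0.27 and -0.05 at 2, 10 and 72 h. Among all 9094 expressed genes it was -0.33 at 2 h and -0.04 at 72 h. Within classes of mRNA length, the long genes stayed below the short genes at 72 h, by 0.80 for 2 to 4 kb, by 1.42 for 4 to 6 kb and by 2.01 for 6 to 10 kb. Earlier times differed. For mRNA under 2 kb, 2 to 4, 4 to 6 and 6 to 10 kb, long minus short was 0.02, 0.07, 0.08 and -0.03 at 2 h. It was 0.16, 0.11, -0.13 and -0.24 at 10 h, and -0.08, -0.30, -0.73 and -0.88 at 24 h. Within classes of DMSO level, they were lower than short genes by 0.83 to 1.06 at 72 h. At other times this varied, since in the class of 10 to 20 CPM the long genes were above the short genes by 0.09 at 2 h and 0.32 at 10 h, and in that over 100 CPM they differed by -0.11 at 48 h. The difference at 72 h thus remained in classes of mRNA length up to 10 kb and of expression, and did not remain in the classes of 6 to 30 exons. For mRNA over 10 kb it was 0.10, with 47 long and 10 short genes. In the end classes of exon number it was -1.18 for fewer than 6 exons and 0.43 for over 30. Span, mRNA length and exon number differ together between long and short genes, and which of them the difference goes with was not tested.

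The 19 long genes that were lower at 2 h include several regulators of transcription and signalling. AHR (chr7:16916359-17346152), the aryl hydrocarbon receptor, had 12.3 and 14.9 CPM in DMSO and 5.22 and 4.88 CPM in toyocamycin, a log2 fold change of -1.42 ± 0.22 (SE, edgeR adjusted p = 7.18e-04). Of its exon bases, 35.2% are shared with another gene. ZNF407 (chr18:74597870-75065671), a zinc finger protein, had 15.8 and 16.5 against 6.84 and 6.18 CPM, a log2 fold change of -1.31 ± 0.17 (SE, edgeR adjusted p = 2.04e-04). SSH2, a phosphatase of cofilin, had 23.9 and 27.4 against 9.94 and 12.6 CPM, a log2 fold change of -1.19 ± 0.19 (SE, edgeR adjusted p = 0.00110). JMJD1C, a JmjC-domain protein of chromatin, had 27.3 and 38.3 against 14.7 and 14.1 CPM, a log2 fold change of -1.18 ± 0.22 (SE, edgeR adjusted p = 0.00289). ARHGAP42, a GTPase-activating protein, and HDAC4, a histone deacetylase of class IIa, fell by 0.97 and 0.89 on the log2 scale, with edgeR adjusted p = 0.00524 and 0.00405. These 6 genes were chosen among called members whose libraries did not overlap between the arms.

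Of the 19 genes lower at 2 h, 12 were also lower at 72 h, 6 were higher and 1, MAST4, was not called. The 6 that turned were AHR, ZNF407, ARHGAP42, PDE4B, JMJD1C and BACH1. Such turns were counted in the members only and do not set them apart from other genes. Of all genes tested, whatever their call at 2 h, 47% were higher at 72 h. AHR had 8.13, 5.67 and 5.92 CPM in DMSO and 31.6, 25.8 and 27.2 CPM in toyocamycin at 72 h, a log2 fold change of 2.13 ± 0.18 (SE, edgeR adjusted p = 1.76e-08). Its DMSO level was lower at 72 h than at 2 h, with a difference of -1.05 on the log2 scale (edgeR adjusted p = 0.00190). ARHGAP42 had 18.3, 16.95 and 19.4 CPM in DMSO and 63.5, 85.4 and 84.99 CPM in toyocamycin at 72 h, a log2 fold change of 2.13 ± 0.16 (SE, edgeR adjusted p = 3.84e-09). ZNF407 was at 38.2 CPM at 24 h against 14.6 CPM in DMSO, and at 27.2, 29.5 and 28.1 against 12.1, 12.2 and 10.9 CPM at 72 h, a log2 fold change of 1.30 ± 0.14 (SE, edgeR adjusted p = 2.96e-07). PDE4B, a phosphodiesterase that degrades cyclic AMP, had 163 and 173 CPM in DMSO and 85.8 and 109 CPM in toyocamycin at 2 h, a log2 fold change of -0.78 ± 0.18 (SE, edgeR adjusted p = 0.0141). SSH2 was lower at 2 h and higher at 24 h, with 48.7 against 19.01 CPM at 24 h, and lower again at 72 h, with 12.1, 12.7 and 9.21 against 18.98, 18.1 and 18.97 CPM, a log2 fold change of -0.69 ± 0.16 (SE, edgeR adjusted p = 0.00104). Without replicate 2 of toyocamycin at 2 h, 9 long genes were lower at 2 h.

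The 6 genes with the largest rises at 72 h were chosen among called members whose libraries of both arms did not overlap. PDE4B (chr1:65792514-66374579) was at 228, 251 and 315 CPM in DMSO and 4126, 3926 and 3723 CPM in toyocamycin, a log2 fold change of 3.92 ± 0.16 (SE, edgeR adjusted p = 7.70e-12). RUNX2 (chr6:45328157-45664349), a Runt-family transcription factor of bone formation, was at 156, 154 and 179 CPM in DMSO and 2368, 2807 and 2406 CPM in toyocamycin, a log2 fold change of 3.99 ± 0.14 (SE, edgeR adjusted p = 1.81e-12), which is 15.9-fold. RUNX2 was at 138 and 128 CPM in toyocamycin and 135 and 139.6 CPM in DMSO at 2 h, and at 1456 against 141 CPM at 24 h. RASAL2, a Ras GTPase-activating protein, was lower at 10 h, with 21.2 and 13.8 against 30.7 CPM, and higher at 72 h, with 368, 572 and 641 against 34.2, 36.1 and 37.1 CPM, a log2 fold change of 3.91 ± 0.19 (SE, edgeR adjusted p = 3.18e-11). KIAA1217 showed the same order, with 21.8 and 16.9 against 36.99 CPM at 10 h and 467, 456 and 437 against 39.1, 39.5 and 42.7 CPM at 72 h, a log2 fold change of 3.52 ± 0.13 (SE, edgeR adjusted p = 2.34e-12). ACYP2, an acylphosphatase, had 7.98, 7.06 and 7.55 CPM in DMSO and 51.7, 53.4 and 49.97 CPM in toyocamycin, a log2 fold change of 2.81 ± 0.14 (SE, edgeR adjusted p = 5.97e-11), and shares 16.5% of its exon bases with another gene. EIF4G3, a scaffold of the translation initiation complex, had 78.04, 76.2 and 84.7 against 394, 472 and 488 CPM, a log2 fold change of 2.54 ± 0.13 (SE, edgeR adjusted p = 7.38e-11), and its canonical transcript has 37 exons.

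**Figure D5:**
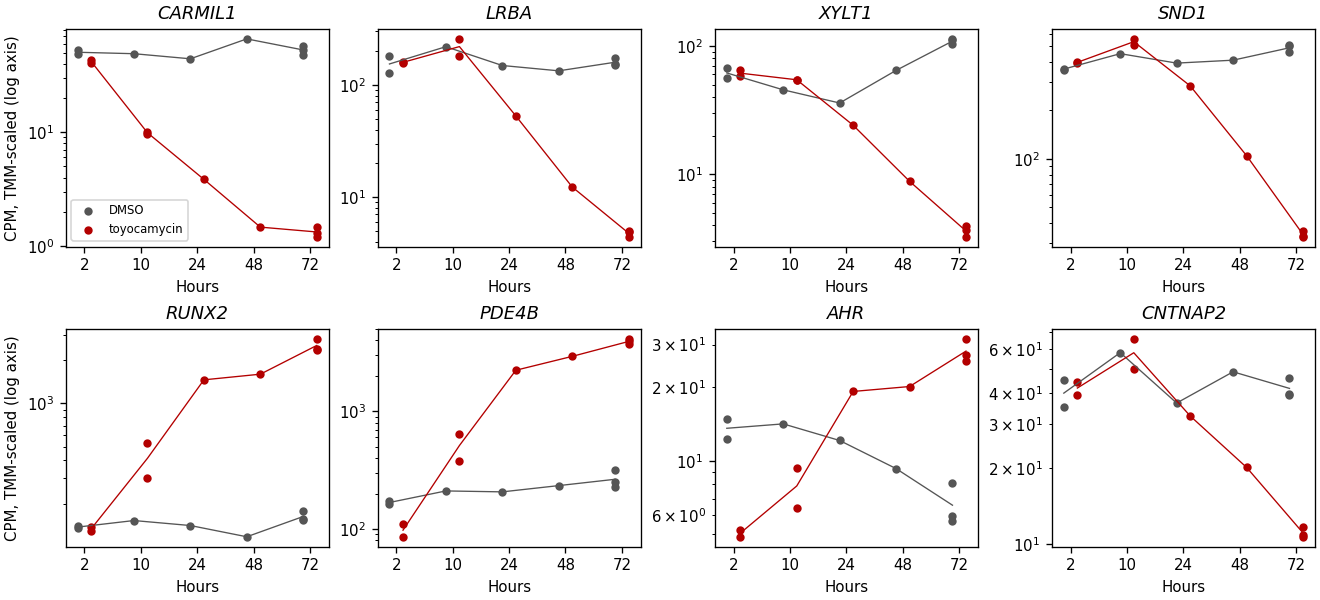
TMM-scaled CPM (log axis) of 8 long genes in every library by time, with DMSO in grey, toyocamycin in red and lines through the means. CARMIL1, LRBA, XYLT1, SND1 and CNTNAP2 end below all DMSO libraries of 72 h, and RUNX2, PDE4B and AHR above them.

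The only DMSO library of 10 h is of batch 2, and the fit had no batch term. CLASP1, a microtubule plus-end protein, had the largest fall at 10 h beside CARMIL1 and PLCH1. It had 72.9 CPM in the DMSO library and 11.4 and 13.9 CPM in the toyocamycin libraries, a log2 fold change of -2.53 ± 0.21 (SE, edgeR adjusted p = 8.81e-07). PLCH1, a phospholipase C, had 13.96 CPM in DMSO and 2.86 and 2.76 CPM in toyocamycin, a log2 fold change of -2.31 ± 0.34 (SE, edgeR adjusted p = 9.71e-05). The rises at 10 h were led by CHST11, a chondroitin sulfotransferase, TSPAN8, a tetraspanin, and KCNQ1, a potassium channel. CHST11 had 5.74 CPM in DMSO and 29.2 and 18.2 CPM in toyocamycin at 10 h, a log2 fold change of 2.06 ± 0.31 (SE, edgeR adjusted p = 1.15e-04). At 72 h CHST11 was lower, with 13.4, 19.9 and 16.7 against 30.1, 34.04 and 31.97 CPM, a log2 fold change of -0.91 ± 0.16 (SE, edgeR adjusted p = 7.05e-05), after its DMSO level had gone up from 2.88 CPM at 24 h. TSPAN8 rose to 24.6 and 29.4 CPM against 8.69 CPM at 10 h, a log2 fold change of 1.63 ± 0.26 (SE, edgeR adjusted p = 1.69e-04), and its canonical transcript spans only 32.9 kb. KCNQ1 had 79.2 and 41.9 against 20.1 CPM at 10 h, a log2 fold change of 1.59 ± 0.38 (SE, edgeR adjusted p = 0.00393), and its groups overlapped at 72 h.

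By function, the members are given in role lists, to be read beside the 75.3% lower and 17.4% higher of all 259 long genes at 72 h. The lists were drawn up with earlier results of these data known, their counts were not tested against other members, and they describe the members and support nothing else. Of 13 adhesion, junction and polarity genes, 12 were lower and 1 higher at 72 h, with a median of -1.83. They include PATJ, CTNNA1 (alpha-catenin, -3.34), PTK2 (focal adhesion kinase, -3.32), TLN2 (talin, -3.31) and PARD3 (-1.51), and the exception was the receptor phosphatase PTPRK (1.01). None of the 13 was called at 2 h, when 7.34% of all long genes were lower. Of 27 genes of the cytoskeleton and its regulation, 22 were lower and 2 higher at 72 h (median -2.39), among them SYNE2 (-4.37), the spectraplakin genes MACF1 (-2.87) and DST (-2.08), and the formin gene DIAPH2 (-4.005). Of 18 membrane traffic and autophagy genes, 16 were lower and 1 higher (median -2.05), with the exocyst genes EXOC6B (-3.95) and EXOC4 (-3.47), NBAS (-3.51) and COG5 (-2.60). SPIDR, a DNA repair scaffold, stands in this list as well as in that of genome maintenance. The one that rose was the SNARE gene VTI1A (0.75). The genes in these sentences, unless named above, were chosen after their values were seen.

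Of 13 genome maintenance and replication genes, 12 were lower and 0 higher at 72 h (median -2.24), again beside 75.3% lower of all long genes. They include WWOX (-3.96), FANCC of the Fanconi anemia pathway (-2.24), PRIM2 of the primase (-1.63) and the cohesin gene STAG2 (-1.43). Others in this list have main roles elsewhere, among them NAV2, a neuron navigator gene, DIAPH3, a formin gene, and CDKAL1, a tRNA-modifying enzyme and the member not called. All 6 genes listed under ubiquitin and protein turnover were lower at 72 h (median -0.96), such as the ligase gene NEDD4L (-3.13), and SUMF1 (-0.73) among them activates sulfatases. Of 25 kinase, phosphatase and signalling genes, 18 were lower and 5 higher (median -0.82), and the 5 were PDE4B, RASAL2, FER, CAMK2D and RPTOR. The list also holds CAMTA1 (-0.82), a transcription activator. ADK, the adenosine kinase that phosphorylates adenosine and its analogs, is one of these long genes. It had 63.8 CPM in DMSO and 106 and 93.5 CPM in toyocamycin at 10 h, a log2 fold change of 0.64 ± 0.23 (SE, edgeR adjusted p = 0.0379), and 61.6, 65.2 and 74.7 against 24.8, 24.2 and 27.2 CPM at 72 h, a log2 fold change of -1.37 ± 0.14 (SE, edgeR adjusted p = 1.76e-07). ADK thus rose at 10 h and fell at 72 h.

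Chromatin and transcription genes were divided. Of 23, 6 were lower and 0 higher at 2 h, 5 were lower and 13 higher at 24 h (median 0.70), and 11 were lower and 9 higher at 72 h (median -0.15). Of all long genes, 7.34% were lower and 0 higher at 2 h, and 49.8% and 23.2% at 24 h. KMT2C, a histone methyltransferase, was lower at all 5 times, and HDAC4 at all but 24 h. MAML2, a coactivator of Notch signalling, was lower at 2 and 72 h and higher at 10, 24 and 48 h. NFIA (1.27), MAML3 (1.42) and RUNX2 were among those higher at 72 h. AUTS2 (-3.02) and FOXN3 (-2.92) had the largest falls. Among 8 RNA-binding genes, 5 were lower and 2 higher at 72 h (median -0.90), the 2 being EIF4G3 and the helicase gene ASCC3 (1.63). Of the 23 genes of metabolism, mitochondria and transport, 6 were lower and 8 higher at 10 h, when 39.0% and 15.8% of all long genes were. At 72 h, 16 of the 23 were lower and 3 higher. In this list TUSC3, of the oligosaccharyltransferase, had 1.25 at 10 h and -2.31 at 72 h, and FUT8, a fucosyltransferase, was lower at both times (-1.01 and -3.46).

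Common fragile site genes, the parts of the genome prone to breakage under replication stress, make up 15 of the members. None was called at 2 h, 1 was lower and 3 higher by 10 h, and 12 were lower and 2 higher by 72 h (median -1.89), beside 75.3% and 17.4% of all long genes. At 2 h 7.34% of all long genes were lower, and at 10 h 39.0% were lower and 15.8% higher. WWOX at FRA16D had 23.1, 22.2 and 25.8 CPM in DMSO and 1.87, 1.02 and 1.56 CPM in toyocamycin at 72 h, a log2 fold change of -3.96 ± 0.21 (SE, edgeR adjusted p = 7.76e-11). At 24 h WWOX had 28.3 against 28.7 CPM, and at 48 h it had 5.29 against 26.7 CPM. IMMP2L, of the mitochondrial inner membrane peptidase, was higher at 10 h (1.33) and not called at 72 h (-0.09). The 2 that rose at 72 h were NAALADL2 and TSPAN8. Another 103 long genes, in no list, had 78 lower and 21 higher at 72 h (median -1.27).

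The genes for transcription elongation and termination, of which 50 were tested and none is itself over 300 kb and expressed, moved in both directions. After 2 h, 13 were lower and 0 higher, and the numbers lower and higher were then 23 and 6, 26 and 14, 21 and 16, and 23 and 19 from 10 to 72 h. Among all genes tested, 8.42% were lower and 0.518% higher at 2 h, 24.4% and 20.4% at 10 h, 32% and 30.7% at 24 h, 35.5% and 39.2% at 48 h, and 41.9% and 47% at 72 h. In the PAF1 complex, which accompanies the elongating polymerase, 5 of the subunits tested were lower at 10 h, with PAF1 at -2.48, CTR9 at -3.08, LEO1 at -2.46, CDC73 at -1.43 and RTF1 at -1.40, and SKIC8 had -0.10 (edgeR adjusted p = 0.751). CDK9, the kinase of the elongation factor P-TEFb, had -0.41 at 2 h (edgeR adjusted p = 0.289), -1.67 at 10 h (edgeR adjusted p = 6.29e-04) and -1.41 at 72 h (edgeR adjusted p = 3.82e-07). CCNT1, its cyclin, was lower at 2 h (-0.94) and higher at 72 h (2.74). CDK12 and CDK13, kinases with a known role in long genes, were lower at 2 h (-0.72 and -0.90), and CDK13 was higher at 72 h (1.97), while CDK12 had -0.13 (edgeR adjusted p = 0.282). PCF11, a termination factor, and SCAF4 and SCAF8, which prevent early termination, were lower at 2 h (-1.01, -0.77 and -1.02) and higher at 72 h (3.91, 1.78 and 1.01). What part these genes have in the values of the long genes was not tested.

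Just inside the span limit lay COBL, with 301 kb and log2 fold changes of -0.14 at 2 h and -0.92 at 72 h, and just outside WDFY3, with 298 kb, -0.05 and -3.17. At the expression limit, GALNT18 lay just inside with 10.1 CPM and had 0.06 at 2 h and -2.73 at 72 h.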

How the data were processed

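PolyA-selected RNA of YB5 cells was sequenced in 17 labelled libraries, 8 on DMSO and 9 on toyocamycin. The authors deposited raw read counts per gene, made with STAR 2.7.5a on GRCh38 according to the submitters' processing notes and the study's methods. Which strand setting gave the counts is not given in the sources used here, so overlapping genes may share reads. One further count column matched no sample and was not used. A deposited table of the authors' own comparisons (fold changes and p-values from edgeR) was not used except for its gene width. Gene spans, exons and biotypes came from a GENCODE annotation of GRCh38. They matched the deposited width within 1 base in 11923 of 14508 genes.

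Counts were tested with edgeR 4.0.16 (quasi-likelihood test, filterByExpr, TMM, Benjamini-Hochberg adjusted p under 0.1) in R 4.3.3. A fit of 14 libraries over 14491 genes gave 2, 24, 48 and 72 h, and a fit of all 17 libraries over 16521 genes gave 10 h. The test was against no change, with a minimum of 1.5-fold as an alternative. CPM values of single genes are relative to the TMM-scaled library total. Library totals of 8735465 to 22121364 counts set the precision, and a count of 3 or fewer was reached by at most 2 members in any library. At 2 h the replicate number is the batch of the labels, and same-numbered libraries deviated together over genes (r = 0.307). At 72 h numbers mark no batch. DESeq2 1.42.0, other scalings, filters, span and expression limits and left-out libraries were alternatives. The fits were tested on simulated data with known fold changes. The members, the named genes and the lists were chosen with earlier results of these data known.

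Genes named in full are the 6 with the largest fall at 2 h and the 6 with the largest fall and largest rise at 72 h among called members whose libraries did not overlap, the leading 3 each way at 10 h, the 3 longest, the 3 with the highest DMSO level, those of opposite calls at 2 and 72 h and the genes nearest each limit, of which 1 is not reported here. Start windows came from RefSeq (GRCh38.p14), of which 211 of 259 members have one.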

Additional observations from a re-analysis of the deposited data

Results flagged for a closer look

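The effect of toyocamycin at 72 h differed from that at 2 h, by a test of the difference itself (edgeR, adjusted p under 0.1), in 182 long genes that were lower and 42 that were higher. These are 70.3% and 16.2% of the long genes, beside 38.1% and 38% of all genes tested. The class of 100 to 300 kb had 62.2% lower and 21.8% higher. Of short genes, 50% were lower and 34.4% higher. Among genes named above, the effect at 72 h minus that at 2 h on the log2 scale was -5.08 in LRBA, -5.01 in CARMIL1, -5.001 in PATJ, -4.88 in XYLT1, -4.41 in TIAM1, -4.39 in KIF16B, -3.95 in SND1, -2.60 in CLASP1, -2.32 in PLCH1, -2.20 in TBC1D5, -1.95 in CNTNAP2, -1.03 in CD36 and -0.92 in CHST11. It was above 0 in PDE4B (4.71), RASAL2 (4.48), RUNX2 (4.03), KIAA1217 (3.90), AHR (3.56), ARHGAP42 (3.11), ACYP2 (2.66), ZNF407 (2.61), EIF4G3 (2.20), JMJD1C (1.82), TSPAN8 (1.27), NAALADL2 (0.56) and SSH2 (0.50).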

How the results depend on the processing

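Libraries of 24 and 48 h had no replicate, 10 h had 1 DMSO library, and libraries of 2 h and 10 h came from both batches. None of the 436 values of named genes computed under alternatives changed direction. They cover genes chosen for large called changes or opposite calls, and that choice favours keeping direction. CNTNAP2, NAALADL2, TBC1D5, CD36, SND1 and CUX1, named for length or DMSO level, were not among them. The difference between long and short genes at 2 h lay on both sides of 0. Long genes lower at 2 h numbered 0 with mitochondrial scaling, 4 with a minimum fold change of 1.5, 11 with the other set of libraries and with libraries of 2 h only (the latter added after seeing the data). With the replicate block they numbered 52, and 14 were higher. Leaving out 1 library gave 9 to 21 lower and 0 to 1 higher, and a long minus short difference of -0.24 to 0.07. At 10 h a minimum fold change left 59 lower and 24 higher, library size alone 19 higher, mitochondrial scaling 0 higher, the DESeq2 Wald test 68 higher and a limit of 20 CPM 27 higher. Leaving out a library gave 96 to 108 lower, 44 to 50 higher and a difference of -0.64 to -0.10. At 24 h mitochondrial scaling gave 213 lower and 0 higher and library size alone 21 higher. At 48 h these gave 2 and 22 higher, and at 72 h 12 and 24. With 20 CPM, 29 were higher at 72 h. Leaving out a library at 72 h gave 190 to 194 lower, 42 to 44 higher and a difference of -0.85 to -0.76, and 175 to 185 lower and 36 to 41 higher for the effect at 72 h minus that at 2 h. Counting 592 genes over 200 kb gave 55 lower at 2 h, 293 lower and 75 higher at 10 h, 331 and 122 at 24 h, 372 and 107 at 48 h, and 424 and 109 at 72 h, with a difference of -0.65 at 10 h. Counting 68 genes over 500 kb gave 4 lower at 2 h, 21 lower and 10 higher at 10 h, 34 and 13 at 24 h, 44 and 6 at 48 h, and 55 and 8 at 72 h. The number of members tested changes by construction in these. At 72 h, 71.6% of the 592 and 80.9% of the 68 were lower, beside 53.1% of short genes. The shares were 49.5%, 30.9% and 29.5% at 10 h, and 9.29%, 5.88% and 9.90% at 2 h. Numbers of calls under other scalings, filters and tests are given for members only and do not set long genes apart. Against short genes under 10 kb, the difference at 24 h was -0.87. At 72 h the numbers of replicates did not pair the libraries (r = -0.105, 0.0427 and -0.0876), and the replicate block gave 190 lower and 45 higher. Of these 436 values, 424 kept direction and side of the threshold and 12 lost the call, 10 under mitochondrial scaling and 2, ARHGAP42 and HDAC4 at 2 h, under the minimum fold change. The cause of these changes was not tested.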

Other observations

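Among the 259 long genes, 5 had 3 or fewer counts in at least 1 toyocamycin library of 72 h, namely GTDC1, RALGPS1, SCAPER, SORBS2 and RALGAPA2, and none of them did so in all 3 libraries. Of the 37 long genes that were higher at 72 h and have a start window, 13.5% held TATAAA, against 3.82% of the 157 that were lower, and GGGCGG was found in 54.1% and 74.5%. These shares rest on 5 and 6 windows for TATAAA and were not tested.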
